A study of Macaca fascicularis with 6 samples.

Results

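Heart muscle takes up glucose through facilitative transporters of the SLC2A (GLUT) family and commits it to energy production in glycolysis, a chain of enzymes that ends in pyruvate. The 10 genes described here were chosen by name for 5 steps of that chain, with earlier results of these data known, and come mostly in pairs. SLC2A1 (GLUT1) and SLC2A4 (GLUT4) carry glucose into the cell, HK1 and HK2 trap it as glucose phosphate, PFKM and PFKFB2 set the pace at the committed step, ALDOA and ALDOC split the sugar, and ENO1 and ENO3 act near the end. In mammals, the balance of such pairs is known to shift between the developing and the adult heart and in the hypertrophied ventricle, where the fetal forms often gain on the adult ones. The members are the probe sets whose design name, or whose annotated symbol where no design name exists, is one of these genes. They make 10 of the 21501 gene names on the array, with 22 probe sets.

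Transcripts were measured in the left ventricular free wall of male cynomolgus monkeys (Macaca fascicularis) aged 4 to 6 years, each hybridized to its own array of the Affymetrix rhesus design. The intact group holds 4 animals that were not operated on (numbers 11, 12, 13 and 14). The chronic atrioventricular block group holds 2 animals (numbers 2 and 8) whose atrioventricular node had been ablated 8 months before the tissue was taken. Both were picked for the array because, among the operated animals, they had the most episodes of torsade de pointes after dl-sotalol, a drug that blocks beta receptors and delays repolarization. They had been challenged with oral dl-sotalol at 10 mg/kg before the operation and in most months after it, and also with vehicle alone and with moxifloxacin, so the block, the drugs and the choice by arrhythmia cannot be told apart. At least 50 mg of transmural tissue was used, and in such bulk tissue fewer cells of a type and less RNA per cell cannot be told apart.

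The arrays stood at different overall levels, with trimmed mean signals between 75.1 and 88.2 for the intact animals, 54.6 for animal 2 and 73.5 for animal 8. All signals below were scaled to 1 common trimmed mean. The share of probe sets called Present ranged from 37.2% to 39.2% without block and was 36.0% in animal 2 and 39.7% in animal 8. The ratio of the 3′ to the 5′ probe set of GAPDH, a reading of RNA integrity, was 2.17 to 2.65 in the intact hearts, 5.05 in animal 2 and 3.05 in animal 8 (2-sided exact permutation p = 0.0667, which is the lower limit with 15 splits of 6 arrays). The same ratio for ACTB overlapped between the groups (7.85 to 10.9 against 11.6 and 8.98, exact permutation p = 0.333). The part of RNA integrity in the results below was not tested. The tissue matched its label: all 10 cardiomyocyte markers named on the array were tested, with a summed scaled signal of 73900 to 82870 among intact animals, 100600 in animal 2 and 80920 in animal 8, while 4 of the 6 skeletal muscle markers named on the array (MYH2, TNNT3, TNNI2 and TNNC2) were not detected on 2 or more arrays. The other skeletal muscle markers were measured, ACTA1, which heart muscle also expresses, at 7007 to 14530 over the 6 arrays and MYH1 at 12.8 to 275.6.

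All 10 genes were detected in the monkey ventricle, and 15 of their 22 probe sets were Present on all 6 arrays. In the block hearts, the insulin-responsive transporter SLC2A4, the phosphofructokinase regulator PFKFB2 and the aldolase ALDOC had signals of 0.70, 0.68 and 0.71 times the intact mean, and HK2 of 1.54 times. On their brightest probe sets, HK1, ALDOA and ENO1 lay within 7% of the intact mean, while the other tested ENO1 sets stood at 1.38 and 1.11 times. None of these differences passed the test across all probe sets. Of the 16 member probe sets that were Present on at least 2 arrays and so were tested, 0 passed limma's test at a Benjamini-Hochberg adjusted p under 0.05, against 5 of all 22577 probe sets tested (0.0221%). At an unadjusted p under 0.05, 5 member probe sets were lower (4.62% of all tested) and 1 was higher (3.62% of all tested). One of the 5, the second PFKFB2 set, was Present only in intact hearts, so the detection filter itself favoured a lower value, and among the 15 sets Present on all arrays 4 were lower and 1 was higher. In 6 member probe sets of 4 genes, SLC2A4, PFKM, PFKFB2 and ALDOC, both block hearts lay below all intact hearts, a placing that 9.48% of all probe sets tested had. Leaving out that PFKFB2 set, 5 of 15 were so placed. In 2, of SLC2A1 and HK2, both lay above, as did 8.61% of all tested. Probe sets named for the same gene are not separate evidence. The median log2 difference was -0.04 over the brightest probe set of each gene and -0.0033 over all probe sets tested.

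**Figure D1:**
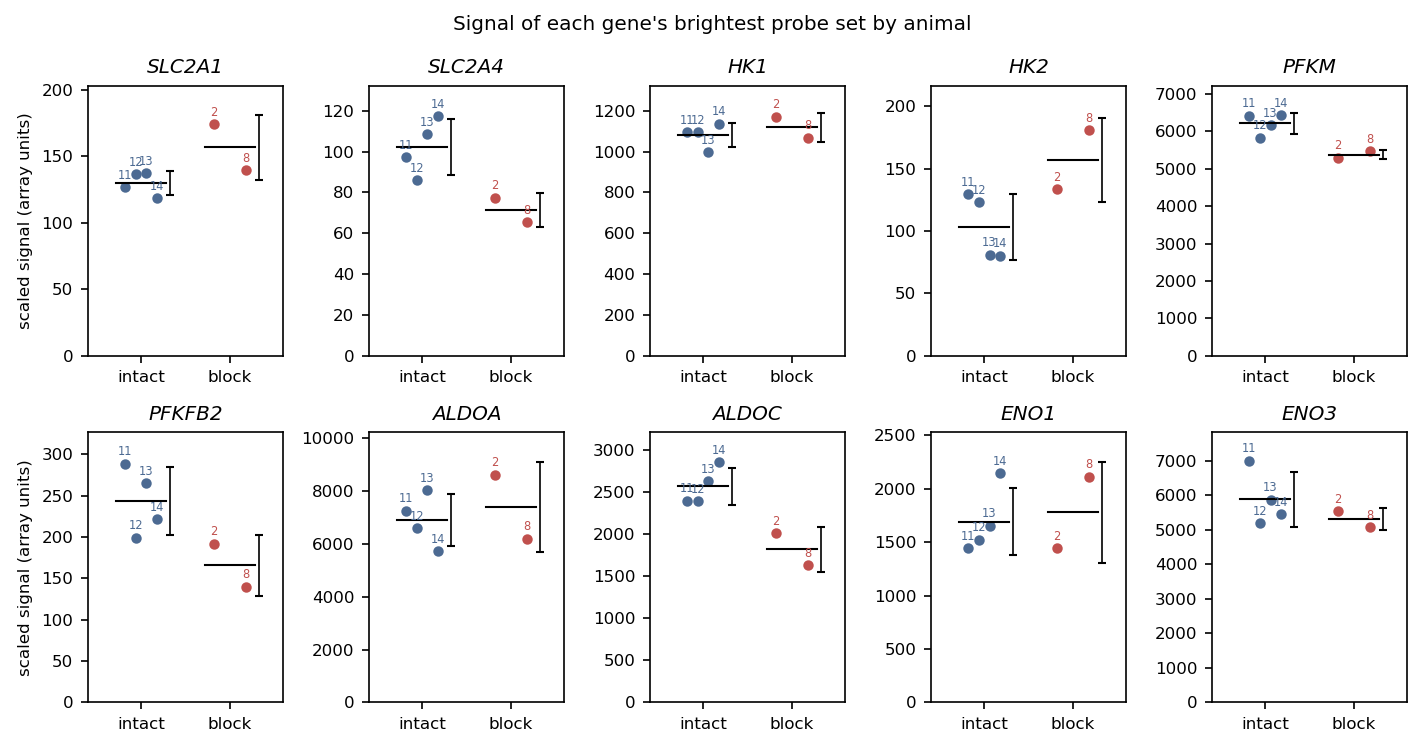
Scaled signal (array units, axis from 0) of the brightest probe set of each of the 10 genes, with 1 labelled point per animal (intact in blue, chronic block in red), the group mean as a horizontal line and the SD as a bar beside it. Animals 2 and 8 lie below every intact animal for SLC2A4, PFKM, PFKFB2 and ALDOC and above every intact animal for SLC2A1 and HK2; signals are not comparable between panels.

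SLC2A4 encodes GLUT4, the transporter that insulin and contraction bring to the surface of muscle cells, and it is the main glucose carrier of the adult heart. Its single probe set lies at chr16:7018454-7019068 (plus strand) of the rhesus assembly named in the annotation, Mmul_051212, to which all positions here refer. The scaled signal of SLC2A4 was 97.2, 85.8, 108 and 117 in intact animals 11 to 14 and 77.5 and 65.5 in block animals 2 and 8. Both block hearts were below the lowest intact heart, animal 12. The means were 102.2 ± 13.7 (SD, n = 4) and 71.5 ± 8.46 (SD, n = 2), a log2 difference of -0.51 (95% interval -0.997 to -0.02, limma adjusted p = 0.585). Up to 8 probes of this set also match another annotated transcript. SLC2A4 is also strongly expressed in fat cells, and the summed signal of the 5 adipocyte markers tested was 1036 to 5053 in the intact hearts and 5153 and 3328 in animals 2 and 8, so it overlapped between the groups. FABP4 made up most of that sum. On the log2 scale, 3 of the 5 markers, ADIPOQ, CIDEC and LIPE, were lower with block (0.82, 0.90 and 0.76 times). FABP4 and PLIN1 were higher (2.09 and 1.39 times), though the arithmetic mean of PLIN1 was 70.9 with block against 164.4. All 5 markers overlapped between the groups. Their part in the SLC2A4 values was not tested.

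SLC2A1 encodes GLUT1, the carrier of basal glucose uptake in most tissues and the dominant one before birth. Of its 3 probe sets, only the brightest (chr1:45822348-45822986, minus strand) was tested. There the SLC2A1 signal was 127, 137, 138 and 118 in intact animals 11 to 14, 174 in animal 2 and 139 in animal 8. Animal 8 was above the highest intact heart, animal 13, by less than the intact hearts differed among themselves, and animal 2 stood clear of all of them. The mean was 129.9 ± 9.05 (SD, n = 4) against 156.8 ± 24.5 (SD, n = 2), with a log2 difference of 0.26 (95% interval -0.16 to 0.69, limma adjusted p = 0.752). Without animal 2 the difference was 0.10, and without animal 8 it was 0.42. The other pair of SLC2A1 probe sets was Present on 0 arrays, with signals of 2.61 to 26.3, and one of them aligns to the opposite strand of the locus. SLC2A1 is also the glucose carrier of red blood cells. The summed signal of the 4 erythroid markers tested, all of them with a mean higher in the block hearts and none past the test, was 5625 to 16030 in the intact hearts, 22220 in animal 2 and 15910 in animal 8. HBB made up most of it, with animal 2 well above and animal 8 just above the highest intact heart. In the other 3 erythroid markers the groups overlapped. The part of the erythroid markers in the SLC2A1 values was not tested.

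Hexokinases phosphorylate glucose so that it stays in the cell. HK1 is the widely expressed form, bound to mitochondria, and HK2 is the form of insulin-sensitive muscle and fat. The HK1 probe set (chr9:67623853-67624656, minus strand) read 1093, 1095, 998 and 1137 in intact animals 11 to 14 and 1170 and 1068 in animals 2 and 8. The HK1 groups overlapped, with means of 1081 ± 58.5 (SD, n = 4) and 1119 ± 72.1 (SD, n = 2) and a 95% interval for the ratio of 0.825 to 1.30. The HK2 probe set (chr13:75137102-75137873, plus strand) read 130, 123, 81.1 and 80.2 in the intact hearts, 133.4 in animal 2 and 181 in animal 8. The intact hearts fell into a higher and a lower pair for HK2, and animal 2 was only just above the higher pair. HK2 averaged 103.4 ± 26.5 (SD, n = 4) in the intact and 157.1 ± 33.6 (SD, n = 2) in the block hearts, a log2 difference of 0.62 (95% interval 0.0048 to 1.24, limma adjusted p = 0.604). The intact SD of HK2, 0.374 on the log2 scale, was the highest among the brightest probe sets of the 10 genes and the only one above the median of all probe sets tested, 0.299.

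The committed step of glycolysis is set by phosphofructokinase, of which PFKM is the muscle form, and by PFKFB2, the heart form of a bifunctional kinase and phosphatase that makes and removes a regulatory fructose bisphosphate, a strong activator of that enzyme. PFKM (chr11:45225236-45225692, plus strand) read 6416, 5828, 6168 and 6423 in intact animals 11 to 14 and 5290 and 5459 in animals 2 and 8. Both block hearts were below every intact heart, and they were close to each other. The PFKM means were 6209 ± 279.9 (SD, n = 4) and 5374 ± 119.9 (SD, n = 2), a log2 difference of -0.21 (95% interval -0.51 to 0.09, limma adjusted p = 0.716). PFKM had the smallest spread of the 10 genes, with an intact SD of 0.0659 on the log2 scale. The annotation gives this probe set the symbol of a predicted locus, while its design name is PFKM. The HK1, HK2 and ENO3 sets also carry symbols of predicted loci, and the PFKFB2 sets carry none, so their names rest on the design.

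PFKFB2 has 4 probe sets, of which only 1 was Present on all arrays. That set, with no rhesus alignment in the annotation, read 289, 199, 266 and 221 in intact animals 11 to 14, 192 in animal 2 and 140 in animal 8. Animal 2 was just below the lowest intact heart, animal 12, and animal 8 was well below it. The means were 243.8 ± 40.8 (SD, n = 4) and 166.0 ± 36.8 (SD, n = 2), a log2 difference of -0.56 (95% interval -1.06 to -0.05, limma adjusted p = 0.562). The second PFKFB2 probe set (chr1:163275734-163276312, minus strand) read 78.7, 86.0, 124 and 102 in intact animals 11 to 14, 40.8 in animal 2 and 58.4 in animal 8, with a log2 difference of -0.98 (limma adjusted p = 0.403). It entered the test only through its Present calls in animals 13 and 14, so a lower value in the block hearts was built into its selection. The remaining PFKFB2 sets were Present on 1 array each, the third reading 17.9 to 42.5 in the intact hearts and 27.8 and 8.65 in animals 2 and 8, and the fourth reaching at most 12.2.

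Aldolase splits the bisphosphorylated hexose into a pair of trioses. ALDOA is the muscle form, and ALDOC is best known from brain. The brightest ALDOC probe set (chr16:23768677-23769101, minus strand) read 2396, 2389, 2626 and 2849 in intact animals 11 to 14, 2009 in animal 2 and 1632 in animal 8. Both block hearts were below all intact hearts, and the gap from animal 8 to the lowest of them was wider than the whole intact range. The means were 2565 ± 219.1 (SD, n = 4) and 1820 ± 267.1 (SD, n = 2), with a log2 difference of -0.50 (95% interval -0.86 to -0.14, limma adjusted p = 0.472). The second ALDOC probe set (chr16:23769666-23771102, minus strand) gave 902, 831, 772 and 976 in the intact and 617 and 561 in the block hearts. Again no intact heart was as low as either block heart, and the ratio of the groups was 0.68 (95% interval 0.528 to 0.872, limma adjusted p = 0.425). Some probes of this second set also match other transcripts, ALDOA among them.

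The 3 ALDOA probe sets, which overlap one another around chr20:28049977-28050812 (plus strand), overlapped between the groups. The brightest read 7265, 6612, 8032 and 5732 in intact animals 11 to 14 and 8623 and 6202 in animals 2 and 8. Animal 2 was above every intact heart for this ALDOA set and animal 8 was below all but animal 14. The ratios of block to intact hearts were 1.07, 1.02 and 1.04 for the 3 ALDOA sets, and the 95% interval for the brightest was 0.789 to 1.44. Up to 8 probes of the brightest ALDOA set also match other annotated transcripts, 5 in number, and 8 probes of the third set match 1 other.

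Enolase makes phosphoenolpyruvate. ENO1 is the widely expressed and fetal form, and ENO3 is the form of adult striated muscle. The brightest of the 5 ENO1 probe sets (chr1:11900010-11900240, minus strand) read 1446, 1523, 1655 and 2147 in intact animals 11 to 14, 1446 in animal 2 and 2112 in animal 8. The block hearts thus lay at opposite ends of the intact range, animal 2 level with the lowest intact heart and animal 8 next to the highest. In all 3 tested ENO1 sets animal 8 read higher than animal 2, by 1.46, 1.57 and 1.58 times, and animal 14 was the highest intact heart. The log2 differences between the groups were 0.06, 0.46 and 0.16 for these sets (limma adjusted p of 0.953, 0.665 and 0.914). The tested ENO1 sets share a region, and each has probes that match other transcripts. The other ENO1 pair was hardly detected: one set aligns to chromosome 3 at 92.5% identity and was Present on 1 array, and the other lies upstream of the rest and was Absent on every array.

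ENO3 read 7012, 5191, 5874 and 5465 in intact animals 11 to 14 and 5541 and 5083 in animals 2 and 8. Animal 8 was below every intact heart and animal 2 lay inside their range. The ENO3 means were 5885 ± 801.7 (SD, n = 4) and 5312 ± 323.9 (SD, n = 2), with a 95% interval for the ratio of 0.704 to 1.17 (limma adjusted p = 0.850). The best alignment of this probe set in the annotation, on chromosome 13, has only 76.9% identity.

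**Figure D2:**
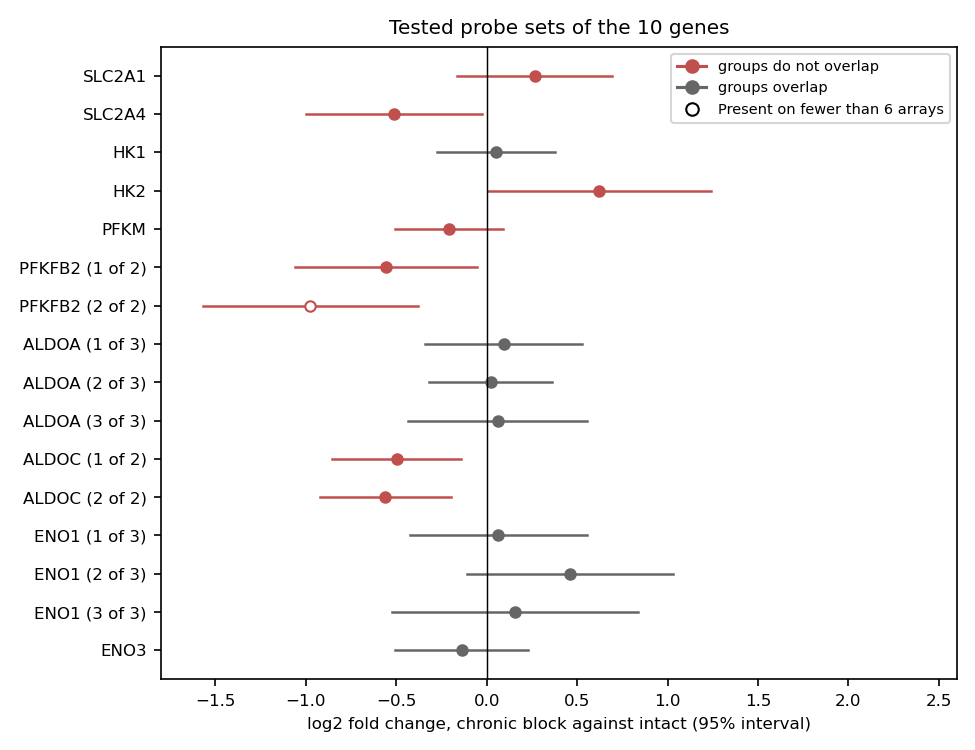
Log2 fold change of chronic block against intact hearts for the 16 tested probe sets of the 10 genes, with the 95% interval from limma as a line; red marks probe sets whose groups do not overlap, and the open circle the PFKFB2 set that was Present on 2 arrays. The intervals of SLC2A4, HK2, PFKFB2 and ALDOC lie to one side of 0 before adjustment, those of SLC2A4 and HK2 only just. Among sets Present on all arrays, these differences run from -0.56 for the PFKFB2 and second ALDOC sets to 0.62 for HK2. Intervals of SLC2A1, HK1, PFKM, ALDOA, ENO1 and ENO3 span 0, although the groups of SLC2A1 and PFKM do not overlap.

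Where a gene had more than 1 tested probe set, the sets could be compared animal by animal. Both ALDOC sets placed animal 8 lowest and animal 2 next. The 3 ALDOA sets all placed animal 13 highest among the intact hearts, and the 3 ENO1 sets all placed animal 14 highest. The PFKFB2 sets differed on which block heart was lower: animal 8 stood at 0.580 of the intact mean on the brightest set and animal 2 at 0.424 on the second.

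**Figure D3:**
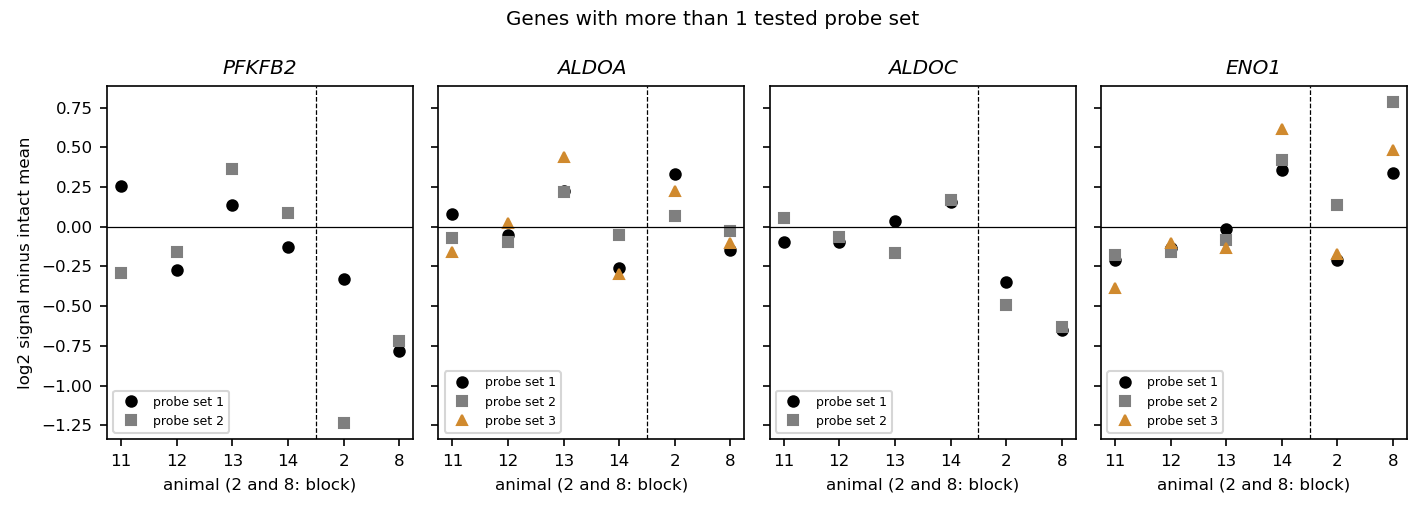
Log2 scaled signal of each animal minus the intact mean, for the 4 genes with more than 1 tested probe set (probe set 1 is the brightest); the dashed line separates intact animals 11 to 14 from block animals 2 and 8. The ALDOC sets sit together below 0 in both block animals, while the ENO1 sets are high in animal 8 and in intact animal 14.

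The ratio of paired genes within an array does not depend on how the arrays are scaled, and its change from animal to animal was read without a test. The SLC2A4 to SLC2A1 log2 ratio, set to 0 at the intact mean, ran from -0.32 to 0.34 in the intact hearts and was -0.81 in animal 2 and -0.74 in animal 8. Both block hearts were below the intact range, at 0.569 and 0.600 times the intact mean ratio of these transporters. That placing followed from the separate signals and is not further evidence. Both block hearts already lay below all intact hearts for SLC2A4 and above all of them for SLC2A1. The ALDOC to ALDOA ratio ran from -0.19 to 0.41 in the intact hearts and was -0.68 and -0.50 in animals 2 and 8, again below the range. For HK2 to HK1, the intact hearts ran from -0.40 to 0.34, with animal 2 inside at 0.29 and animal 8 above at 0.86. The ENO3 to ENO1 ratio placed animal 2 inside the intact range at 0.13 and animal 8 below it at -0.54, where the lowest intact heart was at -0.46.

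**Figure D4:**
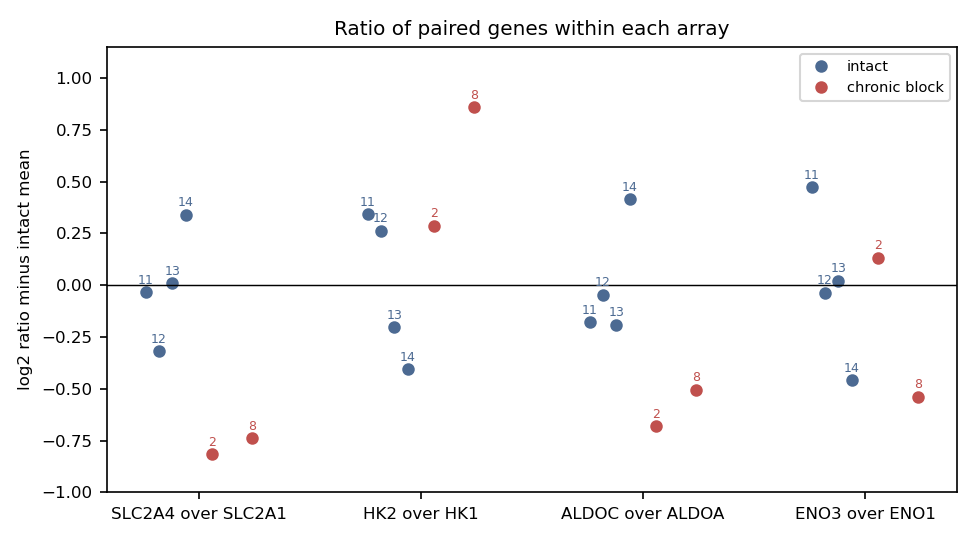
Log2 ratio of the brightest probe sets of paired genes within each array, minus the mean of the intact arrays, with 1 labelled point per animal (intact in blue, chronic block in red). Both block animals lie below the intact range for SLC2A4 over SLC2A1 (-0.81 and -0.74) and for ALDOC over ALDOA (-0.68 and -0.50). The placing of SLC2A4 over SLC2A1 follows from the separate signals of these genes. At least 1 block animal lies within the intact range for the other pairs.

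The wider pathway gave the setting for these genes. The 8 lists of other genes of glucose use named 108 genes, of which 104 have a probe set and 95 were tested on their brightest one, and 0 of the 95 passed limma's adjusted test. At an unadjusted p under 0.05, 5 were lower and 2 higher, beside 4.62% and 3.62% of all probe sets tested. Both block hearts lay below all intact hearts for 13 of the 95 genes (9.48% of all probe sets) and above for 8 (8.61% of all probe sets). The list with the lowest median log2 difference, -0.21, was insulin signal and GLUT4 trafficking, in which 12 of 17 genes had a lower mean in the block hearts. The medians of the other 7 lists ran from -0.11 to -0.02, beside -0.0033 over all probe sets tested. The lowest adjusted p among the genes named below was 0.425, so the values describe these animals and pass no test.

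Among the other glucose transporters, 7 of 11 genes were tested. SLC2A13, a proton-coupled carrier of myo-inositol, read 72.6 to 145 in the intact hearts and 214 and 157 in animals 2 and 8, above the intact range in both. SLC2A3 (GLUT3), the high-affinity transporter of neurons, was at 0.73 times the intact mean on its brightest set, with overlap between the groups and 1 of its 3 tested sets in the other direction. Of the remaining glycolytic enzymes, PKM, which makes pyruvate in the last step, read 513 to 676 in the intact hearts and 338 and 457 in animals 2 and 8, below the range in both. Its log2 difference was -0.54 on this set and -0.15 on the second tested set. PGAM2, the muscle phosphoglycerate mutase, was at 0.73 times with overlap, and so was PFKFB4, a relative of PFKFB2, at 0.83 times.

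The insulin pathway meets SLC2A4 at the sorting of its vesicles. IRS1, the adaptor below the insulin receptor, read 137 to 206 in the intact hearts and 101 and 126 in animals 2 and 8, and the groups did not overlap. TBC1D4 (AS160), the brake on GLUT4 vesicles that insulin releases, read 380 in animal 2, inside the intact range of 363 to 549, and 199.5 in animal 8, and its second tested set had a log2 difference of 0.01. MEF2C, a transcription factor known to act on the SLC2A4 promoter in mouse muscle, read 301 to 486 in the intact hearts and 249 and 232 in animals 2 and 8, and its 2 tested sets had log2 differences of -0.76 and -0.79. PPARGC1A, the coactivator of mitochondrial genes, was at 0.66 times the intact mean, and its groups overlapped.

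In glycogen metabolism, PYGL, the liver form of glycogen phosphorylase, read 42.4, 85.6, 236 and 238 in intact animals 11 to 14 and 29.8 and 38.2 in animals 2 and 8. The intact hearts differed among themselves more than the lowest of them differed from the block hearts, and 1 of the 5 tested PYGL sets went the other way. PHKA2, a regulatory subunit of phosphorylase kinase, was at 0.73 times without overlap. At the entry to the citric acid cycle, DLAT and PDHX, both parts of the pyruvate dehydrogenase complex, were at 0.69 and 1.27 times with overlap. The second tested DLAT set had a log2 difference of -0.02. In the side branches, TKT, the transketolase of the pentose phosphate pathway, was at 0.61 times without overlap, but was Present on only 4 of the 6 arrays. OGT, which attaches N-acetylglucosamine to proteins, was at 1.30 times with overlap and with 3 of its 5 tested sets lower.

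**Figure D5:**
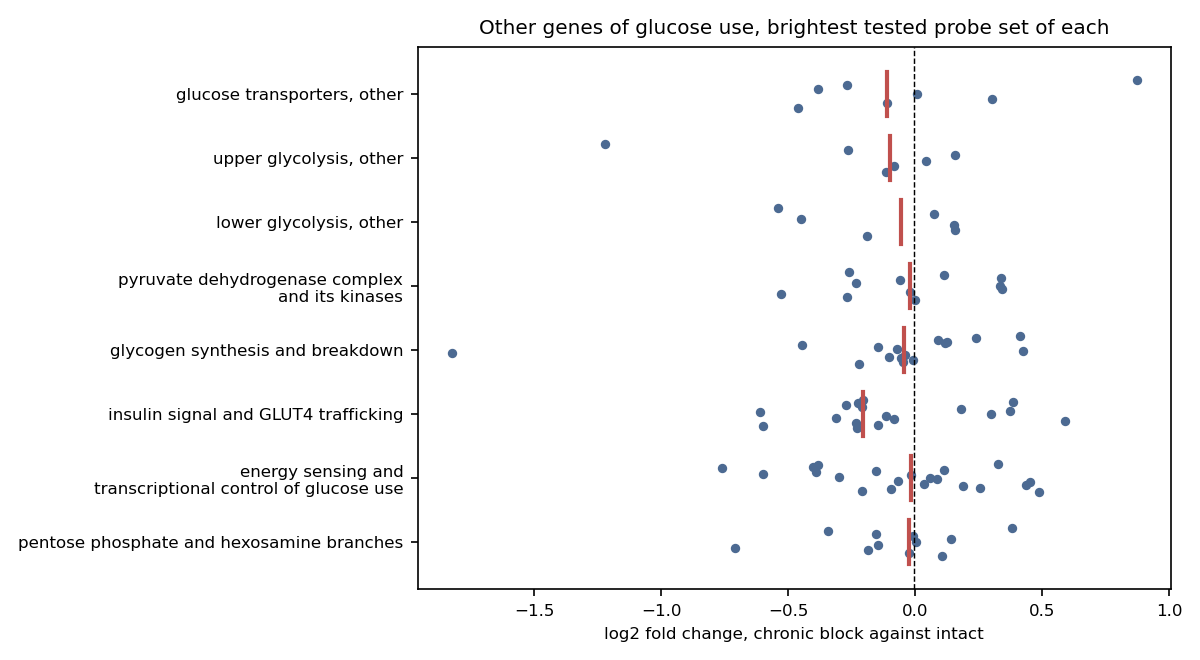
Log2 fold change of chronic block against intact hearts for the 95 tested genes of 8 lists of glucose use, 1 point per gene on its brightest tested probe set, with the list median in red and the median of all probe sets tested as a dashed line. No gene passed the adjusted test; the insulin and GLUT4 list has the lowest median (-0.21) and PYGL is the point farthest to the left (-1.82).

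Marker lists of other cells showed what else differed in these specimens. The 7 macrophage markers all had a higher mean in the block hearts, none past limma's adjusted test, with a summed signal of 439 to 627 in the intact hearts, 580 in animal 2 and 933 in animal 8. In 6 of the 7, all but CD163, the groups overlapped. Smooth muscle and pericyte markers (6 of 7 tested, CNN1 not detected) summed to 4479 to 5844 in the intact and 5504 and 6141 in the block hearts, a sum carried mostly by RGS5. ACTA2, TAGLN and CSPG4 on this list were at 1.343, 1.591 and 1.602 times the intact mean, none past limma's adjusted test. In these 3 of the 6 tested, both block hearts lay above all intact hearts, as did 8.61% of all probe sets tested. RGS5 was at 1.07 times, and MYH11 and PDGFRB were lower, at 0.76 and 0.93 times, all 3 with overlap between the groups. Endothelial markers summed to 2818 to 3413 against 2792 and 3433, and fibroblast markers to 11590 to 21200 against 13680 and 19390. The 2 lymphocyte markers tested of 7 summed to 71.3 to 112 against 106.5 and 171.5, and the 4 nerve and Schwann cell markers tested of 6 to 215 to 313 against 249 and 359. Animal 8 had the highest sum on 5 lists (macrophage, smooth muscle and pericyte, endothelial, lymphocyte, and nerve), but single markers carried some of these sums. In animal 8 the lymphocyte marker CD8A read 152.4, while CD3D, at 19.1, was the lowest of the 6 hearts. Of the endothelial markers PECAM1 read 1407 there, while VWF, at 448.7, was the lowest. On the log2 scale 5 of the 7 endothelial markers were lower with block and 2 were higher. Animal 8 also had the highest HK2 and the lowest SLC2A4, PFKFB2 and ALDOC on their brightest sets. The part of the cells on these lists in those values was not tested.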

How the data were processed

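Total RNA (100 ng) was amplified from the 3′ end and hybridized to 1-colour arrays, 1 per animal. The authors computed MAS5 signal intensity and detection calls (Present, Marginal or Absent, from a detection p-value) in Expression Console. The authors' second set of columns, made in GeneSpring GX, holds log2 signals centred on each array's median and then on the intact animals' median of each probe set, a formula that rebuilt the deposited values to within 2.67e-05. Probes were designed on rhesus sequence, so a base difference in cynomolgus RNA could lower a signal. The numbers of probe pairs behind each signal (6 deposited columns) were left out.

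Deposited intensities were scaled to a common 2% trimmed mean (75.2). Probe sets Present on at least 2 of 6 arrays (22577 of 52706 without controls) were tested on log2 signals with limma 3.58.1 in R 4.3.3 (eBayes with trend, 2-sided, Benjamini-Hochberg), which was tested on simulated data. Tables were made with Python 3.11.15 and pandas 2.3.3. Leave-one-out fits, other scalings, filters and eBayes settings were tried. An offset of 32 and the authors' log2 columns were also tried.

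The gene lists and members were chosen with earlier results of these data known. From each pathway list, the genes named are those past the adjusted test and the 2 with the largest log2 difference on their brightest tested probe set. A gene that this rule names is not reported here. Other genes named are cell type markers. The number of animals limits the precision, and p-values measure the spread between these animals only. Sequences of the probe targets were not used here.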

Additional observations from a re-analysis of the deposited data

Results flagged for a closer look

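In 2 of the 22 member probe sets, 1 intact heart stood apart from the other 3 by more than Dixon's 95% critical value for 4 samples, which chance exceeds in about 1 of 20 groups. The second ALDOA set was highest in animal 13, with a gap of 0.873 of the group's range, and animal 13 was also the highest intact heart on the other ALDOA sets. The second ENO1 set was highest in animal 14, with a gap of 0.833 of the range, and animal 14 was also the highest intact heart on the other tested ENO1 sets. Without animal 14, the log2 difference of this second ENO1 set was 0.60 in place of 0.46 (limma adjusted p = 0.685, and under 0.05 only before adjustment), and that of the brightest ENO1 set was 0.18 in place of 0.06.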

How the results depend on the processing

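No member probe set passed limma's adjusted test under any of the 16 alternative fits, where the lowest adjusted p of a member ran from 0.359 to 0.791 (0.403 as reported), while 2 to 6 passed at an unadjusted p under 0.05. On the brightest sets, ALDOC did so in 14 of the 16 fits, PFKFB2 in 11, HK2 in 10 and SLC2A4 in 6, the last not with quantile, 75th percentile or Present-median scaling. Over all probe sets, 5 were called, against 0 with quantile normalization, the authors' log2 columns, eBayes without a trend or array weights, 8 with an offset of 32, and 0 to 4 when 1 animal was left out. Of 180 alternative log2 differences of the 10 genes, 175 kept direction. Many of these could not turn: fits that changed only the detection filter or the eBayes settings repeat the reported difference by construction. The mean over a gene's tested probe sets does the same where only 1 was tested. The 5 that turned were HK1 without animal 2 (-0.0161; range over animals left out up to 0.12), ALDOA with quantile normalization (-0.0355) and without animal 2 (-0.15; range up to 0.33), and ENO1 without animal 11 (-0.0066) and without animal 8 (-0.21; range up to 0.34); the cause was not tested. Leaving out animal 2 or animal 8 gave -0.63 and -0.39 for SLC2A4, -0.78 and -0.33 for PFKFB2, -0.65 and -0.35 for ALDOC and 0.84 and 0.40 for HK2. By annotation symbol alone, 12 probe sets of 5 genes would be found in place of 22. No paired analysis was possible because the groups share no replicate numbers.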
